A study of Drosophila melanogaster with 18 samples.

Results

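Respiratory complex I (NADH:ubiquinone oxidoreductase) is described here through its nuclear genes in brains of Drosophila melanogaster. Members were all genes of the normalized table whose symbol begins with ND-, together with NdufV3 (CG11752), and 40 of the 13439 genes in the table met this rule. By the place of the mammalian counterpart, 34 of them encode subunits and 6 are copies of subunit genes. The rule names 41 genes of the release 6 gene table of NCBI, and ND-MNLL, the one with no row, was not analysed here. The subunits encoded by mitochondrial DNA had 0 rows. Brains came from Oregon wild-type virgin flies, kept apart by sex and aged to 3, 7 or 14 days after eclosion, with no treatment or transgene in any group. Each library was made from 100 pooled brains, so the spread between libraries is that between pools. Values were used from 16 libraries. There were 3, 2 and 2 libraries for 3-, 7- and 14-day females and 3 libraries for each of 3-, 7- and 14-day males, which the study's methods call biological replicates.

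Complex I takes electrons from NADH, passes them along iron-sulfur clusters to ubiquinone, and uses the energy released to pump protons across the inner mitochondrial membrane. It is L-shaped. In the arm that stands in the matrix, one part oxidizes NADH and the next part reduces ubiquinone, and the arm in the membrane holds the proton pumps. A core of subunits, kept from bacteria to animals, carries out the catalysis, and accessory subunits are wrapped around it. Neurons draw much of their ATP from this chain, because ion pumping and synaptic transmission are costly. Places and roles given below are those of the bovine or human counterpart unless stated.

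Libraries held 2924715 to 8664494 recovered reads. Marker genes of neurons (elav, nSyb, Syt1, brp and Rdl) were abundant in every library, with a sum of 16548 to 102850 normalized reads, as a brain sample should show. Genes that brains should lack or hold at low levels (gustatory receptors, cuticle and eggshell genes) served as a measure of background, and their median was 0.561 to 52.7 normalized reads, highest in replicate 1 of the 14-day males and next in its replicate 2 (27.5). The highest value among females was 19.9, in replicate 2 of the 7-day females. Gut markers summed to 6607 to 18167 normalized reads in 3-day females, against 95.7 to 2003 in all other groups. Photoreceptor markers summed to 34003 to 79795 in females at 3 days, compared with 6740 to 23991 at later ages. Fat body markers (Yp1, Yp2, Yp3, fit, Lsp2 and apolpp) summed to 18333 to 156560 in females, against 2024 to 3232 in males. By group means, most of the female sum came from the yolk protein genes Yp1, Yp2 and Yp3. Group means of Yp1 were 16862 to 58521 in females and 31.7 to 73.2 in males. Those of apolpp were 7124 to 7908 and 1998 to 2086, so the sum is no measure of the amount of fat body.

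Subunit genes were well measured. Each had 30 to 3339 recovered reads in any library, and the mean level per kilobase (kb) of exon over the 16 libraries had a median of 863 normalized reads. All 40 members passed the filter of a mean of at least 5 normalized reads. ND-B12, an accessory subunit of the distal membrane arm, had the highest level per length, at 2389 normalized reads per kb, and ND-B14, an accessory subunit beside the ubiquinone site, the next, at 1777. The lowest among subunits was ND-B8, an accessory subunit of the NADH-oxidizing part, at 149.5 per kb, followed by ND-AGGG of the distal membrane arm at 325. The bars by length show that the parts of the enzyme were interleaved. Their medians were 780 normalized reads per kb over 8 subunits of the NADH-oxidizing part, 885 over 8 of the ubiquinone-binding part, 909 over 7 of the proximal membrane arm and 939 over 10 of the distal membrane arm. ND-MLRQ, placed apart because its human counterpart has been assigned to complex IV, stood at 1448 per kb.

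**Figure D1:**
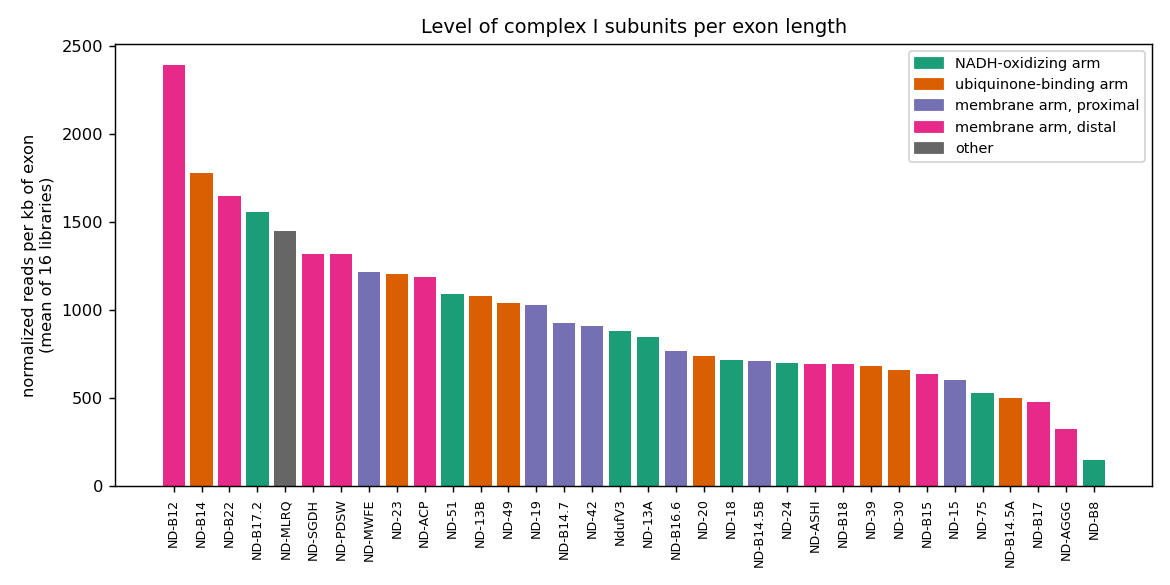
Level of each of the 34 subunit genes, as the mean of 16 libraries in normalized reads per kb of exon, coloured by place in the complex. Levels run from 2389 per kb for ND-B12 to 150 per kb for ND-B8, with subunits of every part spread over the range.

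Exons of 17 of the 34 subunit genes overlap an exon of another gene in the BDGP6.54 annotation, among them ND-B12 (Rae1), ND-51 (CG34180), ND-SGDH (Atg12), ND-18 (CG12204) and ND-B8 (Gs1l). Whether reads were counted by strand is not given in the sources used here, so reads of such pairs cannot be told apart. Of the subunit genes described with values below, ND-49, ND-30, ND-20, ND-23, ND-13B, ND-24, ND-B17.2, ND-42, ND-B14.7, ND-AGGG, ND-75 and ND-B14.5B have no such overlap. Subunit genes lie on every large chromosome arm, with 9 on X, 9 on 2L, 7 on 3L, 6 on 2R, 2 on 3R and 1 on chromosome 4.

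The genes of the complex were, in sum, lower in older brains of both sexes, by 7 days in females and by 14 days in males. Summed over the 34 subunits, females had 33013, 38256 and 33984 normalized reads at 3 days, 27691 and 18819 at 7 days and 23439 and 21478 at 14 days. In males the sum was 30599, 42393 and 38026 at 3 days, 39398, 39014 and 29906 at 7 days and 12742, 21796 and 28739 at 14 days. Every 7- and 14-day female library was below every 3-day female library, and every 14-day male library was below every younger male library. The means were 35084 ± 2789 (SD, n = 3), 23255 ± 6274 (n = 2) and 22458 ± 1387 (n = 2) in 3-, 7- and 14-day females and 37006 ± 5963, 36106 ± 5373 and 21092 ± 8022 in 3-, 7- and 14-day males (n = 3 each). Replicate 1 of the 14-day males was the lowest of all. In bulk RNA, fewer cells of a type and less RNA per cell cannot be told apart.

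As a share of all recovered reads, which does not use the size factors, the subunits took 0.478, 0.518 and 0.548% in females at 3 days, 0.375 and 0.391% at 7 days and 0.431 and 0.519% at 14 days. Males had 0.567, 0.734 and 0.687% at 3 days, 0.703, 0.745 and 0.598% at 7 days and 0.360, 0.471 and 0.596% at 14 days. The share was lower in every 3-day female library than in any 3-day male library, whereas the normalized sums of those groups overlapped. Shares of 14-day libraries overlapped those of 3-day libraries in both sexes, in males through replicate 3 of the 14-day group and replicate 1 of the 3-day group. Both scales placed all 7-day females below all 3-day females and all 7-day males, and all 14-day males below all 7-day males.

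**Figure D2:**
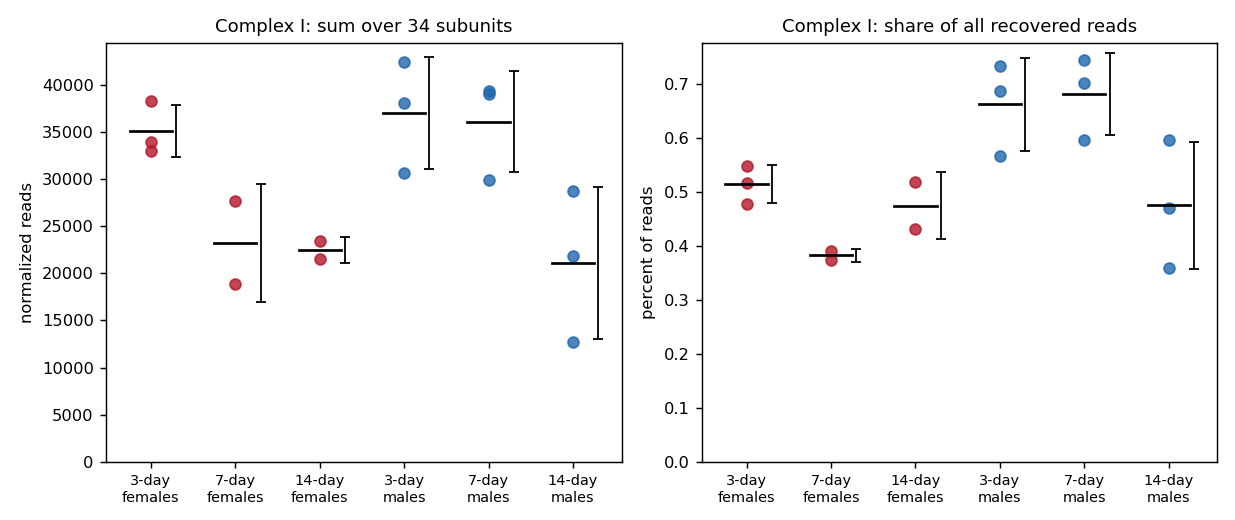
Sum over 34 subunit genes in normalized reads (left) and share of all recovered reads in percent (right) for each library (points), with the group mean (line) and SD (bar beside the points). 7- and 14-day females (18819 to 27691 normalized reads) lie below 3-day females (33013 to 38256), and 14-day males (12742 to 28739) lie below 7-day males (29906 to 39398).

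Among males, 14-day brains had lower levels of most subunit genes than 7-day brains. In limma, with all groups in 1 model and adjustment over the 12448 genes tested, 26 of 34 subunits fell at an adjusted p under 0.1, against 6.54% of all genes tested called lower, and 0 rose. At an unadjusted p under 0.05, 30 were lower, against 11.7% of all genes. All 34 fold changes were below 0, with a median log2 fold change of −0.89 and a range of −1.15 to −0.32. The median was −0.27 over the 6453 abundant genes (a mean of 100 normalized reads or more) and 0.20 over all genes tested. The 26 calls had adjusted p values between 0.0761 and 0.0974. In 17 subunits every 14-day male library was below every 7-day male library, against 14.3% of all genes tested.

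Calls in males at 14 against 7 days came from every part of the enzyme. They were 7 of 8 subunits of the NADH-oxidizing part (median log2 fold change −0.96), 8 of 8 of the ubiquinone-binding part (−0.94), 5 of 7 of the proximal membrane arm (−0.78), 5 of 10 of the distal membrane arm (−0.68) and ND-MLRQ (−0.98). Those not called were ND-B8, ND-15, ND-B14.5B, ND-B12, ND-B18, ND-B17, ND-B15 and ND-AGGG, at log2 fold changes of −0.72 to −0.32. DESeq2 on the recovered reads called 26 subunits, beside 872 of 13431 genes called lower. The calls were lost in edgeR's quasi-likelihood test on the recovered reads (0 of 34 at the same adjusted p, 28 lower at an unadjusted p under 0.05), where 0 of all 12448 genes were called in either direction. Leaving out replicate 1 or 2 of the 14-day males or replicate 1 or 2 of the 7-day males also left 0 subunits called (15, 27, 24 and 24 lower at an unadjusted p under 0.05), with 0, 1, 0 and 0 of all genes called lower, and leaving out replicate 2 or 3 of the 14-day females left 16 and 15. With 14-day males replicate 1 left out the median log2 fold change was −0.53.

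Against 3 days, 14-day males had 24 of 34 subunits lower at an adjusted p of 0.0715 to 0.0951, beside 5.43% of all genes tested, and 30 lower at an unadjusted p under 0.05, beside 11.8%. The median log2 fold change was −0.92, and all 34 were below 0. Calls covered 5 of 8 subunits of the NADH-oxidizing part, 7 of 8 of the ubiquinone-binding part, 6 of 7 of the proximal and 5 of 10 of the distal membrane arm, and ND-MLRQ. Groups did not overlap in 20 subunits, against 13% of all genes. Both comparisons of 14-day males share the 14-day libraries. edgeR called 0 subunits and 58 of all 12448 genes lower, with 30 subunits lower at an unadjusted p under 0.05. DESeq2 called 26 subunits, beside 1029 of 13431 genes called lower. In limma 0 were called without replicate 1 or 2 of the 14-day males, replicate 2 or 3 of the 3-day males or replicate 2 or 3 of the 14-day females (20 to 30 lower at an unadjusted p under 0.05), where 6 to 112 of all genes were called lower, and 1 without replicate 2 of the 7-day males. The median was −0.57 when replicate 1 of the 14-day males was left out. Between 7 and 3 days, males had 0 subunits called by limma, edgeR or DESeq2 and 0 at an unadjusted p under 0.05 in limma, where 1.56% of all genes were lower, with a median of −0.07.

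All 8 subunits of the ubiquinone-binding part fell in males at 14 against 7 days. ND-49 (chromosome 4, 568296 to 571554), which with ND-20 forms the pocket where ubiquinone is reduced, had 1533, 2106 and 1909 normalized reads at 3 days, 2294, 2223 and 1839.8 at 7 days and 561, 1155 and 1442 at 14 days in males. All 3 values at 14 days lay below all 6 of the younger males. In females ND-49 had 2199, 1939.8 and 1864 at 3 days, 1429.6 and 1197 at 7 days and 1349.6 and 1357 at 14 days, again with both older groups below all 3-day libraries. The log2 fold change was −1.11 (adjusted p = 0.0761, SE 0.28) for 14 against 7 days in males.

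ND-20 (chromosome X, 15985473 to 15986808), which holds the last iron-sulfur cluster before ubiquinone, had 998, 1417 and 1142 normalized reads in males at 3 days, 1275, 1123 and 863 at 7 days and 384, 631 and 864 at 14 days. The highest 14-day value and the lowest 7-day value met, so these groups overlapped, while 14-day and 3-day males did not. Females had 1133, 1501 and 1194 at 3 days, 849.7 and 691 at 7 days and 877 and 775 at 14 days, and 3-day values exceeded all later ones. Its log2 fold change in males was −0.98 (adjusted p = 0.0784, SE 0.26) for 14 against 3 days.

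ND-23 (chromosome 3R, 15836048 to 15837117), which carries a pair of iron-sulfur clusters next to the membrane, had 1098, 1253 and 1361 normalized reads in males at 3 days, 1372, 1297 and 1140.1 at 7 days and 395, 712 and 1022 at 14 days. Females had 1055, 1179 and 1086 at 3 days, 739.6 and 642 at 7 days and 727 and 689 at 14 days. All 14-day males were below all younger males, and all 7- and 14-day females were below all 3-day females. ND-23 fell in males with log2 fold changes of −0.94 (adjusted p = 0.0761, SE 0.26) for 14 against 7 days.

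ND-30 (chromosome 3L, 3158485 to 3159578), a core subunit between the NADH-oxidizing part and ND-49, fell in males and was not called in females. Males had 692, 1071 and 776 normalized reads at 3 days, 855, 876 and 656 at 7 days and 270.1, 377 and 614 at 14 days. All 14-day values were below the others, with a log2 fold change of −1.07 (adjusted p = 0.0768, SE 0.28) for 14 against 3 days. Females had 487, 754 and 636 at 3 days, 708 and 455 at 7 days and 561 and 508 at 14 days, and these ranges overlapped. Its log2 fold change in females was −0.12 at 7 against 3 days and −0.20 at 14 against 3 days, and the sex difference in change was not called at either step.

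ND-13B (chromosome 3L, 10693184 to 10694108), an accessory subunit of the same part, was lower in older brains of both sexes. Females had 870.2, 919 and 801 normalized reads at 3 days, 540.3 and 380.4 at 7 days and 468 and 417 at 14 days. Males had 711, 802 and 851 at 3 days, 787, 858 and 615 at 7 days and 219, 442 and 607 at 14 days. Neither 7- nor 14-day females overlapped 3-day females, nor did 14-day males overlap younger males. The log2 fold change at 14 against 3 days was −0.96 (adjusted p = 0.0526, SE 0.32) in females and −1.01 (adjusted p = 0.0792, SE 0.28) in males. ND-B14, the accessory subunit with a high level per length, had 1255, 1730.2 and 1294 normalized reads in males at 3 days, 1435, 1480.1 and 980.1 at 7 days and 326, 882 and 1023 at 14 days. In females ND-B14 had 1299, 1384 and 1325 at 3 days, 899 and 627 at 7 days and 810.0 and 653 at 14 days. In males it fell at 14 against 3 days without overlap, with a log2 fold change of −1.08 (adjusted p = 0.0867, SE 0.33).

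In the NADH-oxidizing part, ND-24 (chromosome X, 17632089 to 17633509), a core subunit with an iron-sulfur cluster near the flavin, had 669, 1045 and 955 normalized reads in males at 3 days, 1013, 889.9 and 724 at 7 days and 343, 488 and 567 at 14 days. All 14-day males were below all younger males. Females had 1053, 916 and 773 at 3 days, 689 and 455 at 7 days and 622 and 652 at 14 days, with the lowest value in replicate 2 of the 7-day group. Its log2 fold change in males was −0.94 (adjusted p = 0.0761, SE 0.25) for 14 against 3 days.

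ND-18 (chromosome X, 19492421 to 19493337), an accessory subunit whose human counterpart is mutated in Leigh syndrome, showed the lowest log2 fold change of any subunit in males at 14 against 7 days, −1.15 (adjusted p = 0.0761, SE 0.31). Its values were 479, 739 and 659.6 normalized reads in males at 3 days, 764, 797 and 502 at 7 days and 184, 347 and 439.5 at 14 days, with all 14-day values below all younger ones. Females had 748, 731 and 605 at 3 days, 575 and 301 at 7 days and 456 and 432 at 14 days. Replicate 2 of the 7-day females was the lowest of the females.

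ND-B17.2 (chromosome 2L, 2579201 to 2580172), an accessory subunit of the same part, had 1387, 1638 and 1388 normalized reads in females at 3 days, 1021 and 623 at 7 days and 868 and 739 at 14 days. Males had 1454, 1677 and 1338 at 3 days, 1421, 1395 and 1062 at 7 days and 408, 762 and 1038 at 14 days. All 14-day libraries of each sex were below all 3-day libraries of that sex. It fell at 14 against 3 days in both sexes, with a log2 fold change of −0.87 (adjusted p = 0.0761, SE 0.32) in females and −1.11 (adjusted p = 0.0715, SE 0.29) in males. ND-75, the core subunit with most of the iron-sulfur clusters of this part, was not called in females, at a log2 fold change of −0.11 for 7 against 3 days, and fell in males, with −1.04 (adjusted p = 0.0761, SE 0.30) for 14 against 7 days. ND-51, which binds NADH and flavin, was at −0.61 in females at 7 against 3 days and fell by 1.05 on the log2 scale in males at 14 against 7 days (adjusted p = 0.0761).

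In the proximal membrane arm, ND-42 (chromosome 3R, 22027709 to 22029393), an accessory subunit related to nucleoside kinases, had 1846, 2005 and 1549 normalized reads in females at 3 days, 1379 and 1070.2 at 7 days and 1144 and 985 at 14 days. Males had 1356, 2066 and 2132 at 3 days, 1726, 1999.8 and 1459 at 7 days and 601, 979.8 and 1227 at 14 days. In each sex every 14-day value lay below every 3- and 7-day value, except that in females replicate 2 at 14 days exceeded replicate 2 at 7 days. The log2 fold change at 14 against 3 days was −0.75 (adjusted p = 0.0987, SE 0.30) in females and −1.02 (adjusted p = 0.0768, SE 0.27) in males.

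ND-B14.7 (chromosome 2R, 21025078 to 21026086), an accessory membrane subunit, had the smallest unadjusted p of any subunit between the sexes at 7 days. It had 447 and 350.1 normalized reads in 7-day females, against 935, 947 and 699.8 in 7-day males, with no overlap and a log2 fold change of −1.11 (adjusted p = 0.433). In the other groups it had 493, 835 and 648 in 3-day females, 504 and 456 in 14-day females, 717, 1149 and 888 in 3-day males and 311, 499 and 636 in 14-day males. The 14-day males spanned the values of the 14-day females, and the log2 fold change was −0.96 (adjusted p = 0.0793, SE 0.27) for 14 against 3 days in males.

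The distal membrane arm held the subunit with the smallest adjusted p in females. ND-AGGG (chromosome 3L, 24976254 to 24977118), a small accessory subunit, had 292, 372 and 261 normalized reads in females at 3 days, 212 and 132 at 7 days and 154 and 152 at 14 days. Both later groups lay below the first. It fell in females with log2 fold changes of −0.86 (adjusted p = 0.0902, SE 0.28) for 7 against 3 days and −0.99 (adjusted p = 0.028, SE 0.28) for 14 against 3 days. In males it had 261, 315 and 261 at 3 days, 277, 277 and 249 at 7 days and 157, 273 and 228 at 14 days, with the 14-day range reaching into the others, and its log2 fold change at 14 against 7 days was −0.32 (adjusted p = 0.344), the nearest to 0 of the 34 subunits. ND-B12, the subunit with the highest level per length, had 696, 1398 and 1935 normalized reads in females at 3 days, 956 and 731 at 7 days and 1098 and 930.0 at 14 days. Replicate 1 of the 3-day females stood below every other library for ND-B12. Males had 1955, 2639 and 1927 at 3 days, 1947, 1637 and 1392 at 7 days and 942, 1400.2 and 1584 at 14 days.

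**Figure D3:**
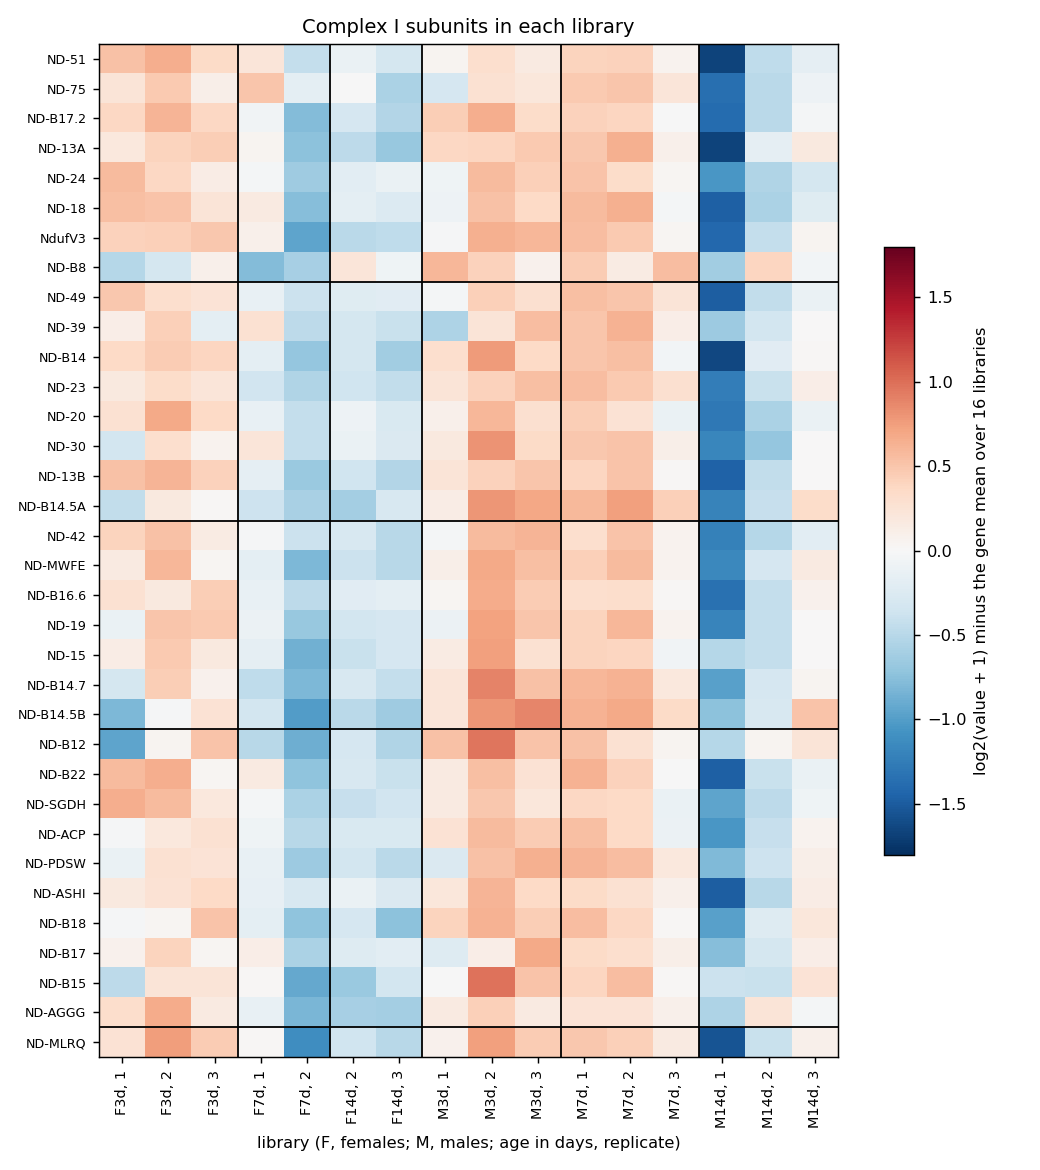
The 34 subunit genes (rows, in blocks from top to bottom for the NADH-oxidizing part, the ubiquinone-binding part, the proximal and distal membrane arm, and ND-MLRQ) in 16 libraries (columns), as log2(normalized reads + 1) minus the gene's mean over all libraries. 3-day libraries of both sexes and 7-day males are mostly above the mean (red), 7-day females replicate 2, 14-day females and 14-day males replicates 1 and 2 below it (blue), and rows ND-B8, ND-B12 and ND-B14.5B depart from the rest.

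In females subunit levels were lower at 7 days, although few single genes passed the adjusted test. At 7 against 3 days, all 34 fold changes were below 0, with a median log2 fold change of −0.65 and a range of −1.04 to −0.11. Only ND-AGGG passed at an adjusted p under 0.1, where 0.739% of all genes were called lower, and 14 subunits were lower at an unadjusted p under 0.05, against 3.55% of all genes. The median was −0.12 over abundant genes. In 24 subunits both 7-day libraries were below all 3-day libraries, against 10.6% of all genes tested. edgeR called 0, beside 72 of 12448 genes called lower, with 5 subunits lower at an unadjusted p under 0.05. DESeq2 called 5, beside 221 of 13431 genes. Without replicate 2 or replicate 1 of the 7-day females, which leaves 1 library in that group, the median was −0.38 and −0.88. The highest count among single omissions was 14 subunits without replicate 1 of the 14-day males, beside 252 of 12448 genes called lower.

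At 14 against 3 days in females, 5 subunits fell at an adjusted p of 0.028 to 0.0987, against 4.61% of all genes tested. They were ND-42, ND-SGDH, ND-B17.2, ND-13B and ND-AGGG, with log2 fold changes of −0.99 to −0.75. At an unadjusted p under 0.05 there were 15, against 8.3% of all genes, the median log2 fold change was −0.61, and 33 of 34 were below 0, the exception being ND-B8 at 0.32. Groups did not overlap in 27 subunits, against 17.5% of all genes. With quantile normalization the median was −0.20 with 0 subunits called, beside 229 of 12448 genes called lower. edgeR called 1, beside 385 of 12448 genes, and DESeq2 8, beside 849 of 13431. Array weights gave 20, beside 1650 of 12448. Without replicate 2 or 3 of the 14-day females, which leaves 1 library in that group, the median was −0.64 and −0.58. In limma 1 subunit was called without replicate 1 or 2 of the 3-day females, and 17 without replicate 1 of the 14-day males. Of all 12448 genes, 1220 were called lower without replicate 1 of the 14-day males, and 210 and 239 without replicates 1 and 2 of the 3-day females. Between 14 and 7 days in females limma, edgeR and DESeq2 called 0 subunits, and in limma 0 were lower at an unadjusted p under 0.05, against 1.09% of all genes, with a median of 0.02.

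Between the sexes, subunits differed most at 7 days. All 34 had a log2 fold change (females over males) below 0 at 7 days, with a median of −0.71 and a range of −1.22 for ND-B14.5B to −0.23 for ND-75. By limma 0 passed an adjusted p under 0.1, where 0.00803% of all genes were called lower. At an unadjusted p under 0.05 there were 19, against 3.11% of all genes. DESeq2 called 1, beside 18 of 13431 genes called lower. edgeR called 0, beside 0 of 12448 genes called lower, with 8 subunits lower at an unadjusted p under 0.05. In 23 subunits both 7-day female libraries were below all 7-day male libraries, against 12% of all genes tested. Replicate 2 of the 7-day females, with background at 19.9 normalized reads beside 8.12 in replicate 1, had the lower subunit sum of the 7-day females. Without it, which leaves 1 library in that group, the median was −0.35. Without replicate 1 or 2 of the 7-day males the median was −0.65 and −0.63, with 9 and 8 subunits lower at an unadjusted p under 0.05. The share of all genes at that threshold was not counted for these omissions.

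At 3 days the sexes differed little in complex I on the normalized scale. By limma 0 subunits passed an adjusted p under 0.1, where 8.34% of all genes were called lower, and 2 were lower at an unadjusted p under 0.05, against 15.9% of all genes, with a median log2 fold change of −0.07. These were ND-B14.5B, an accessory membrane subunit, with 285, 489 and 597 normalized reads in 3-day females, against 579, 864 and 916 in 3-day males, and ND-B12. Both overlapped between the sexes. The adjusted p was 0.129 for ND-B14.5B and 0.133 for ND-B12. Rescaling on abundant genes called 2 subunits lower, beside 893 of all 12448 genes. Array weights called 6 subunits lower, beside 2285 of all 12448 genes. edgeR and DESeq2 called 0 subunits, beside 870 of 12448 and 1302 of 13431 genes called lower, with 1 and 2 subunits lower at an unadjusted p under 0.05. At 14 days limma, edgeR and DESeq2 called 0 subunits, with 0 lower and 0 higher at an unadjusted p under 0.05, against 2.69% and 4.43% of all genes. The median log2 fold change was 0.15, and its sign depended on the setting. It was −0.147 without replicate 1 of the 14-day males, 0.447 without replicate 3 and −0.195 with array weights. Subunit genes on the X chromosome had median log2 fold changes of 0.04, −0.63 and 0.37 between females and males at 3, 7 and 14 days (9 genes), against −0.08, −0.75 and 0.11 for those on other chromosomes (25 genes).

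The difference between the sexes in the change with age was tested as an interaction. For 3 to 7 days the female change minus the male change had a median of −0.64 over the 34 subunits. By limma, edgeR and DESeq2 0 passed the adjusted test, and in limma 1, ND-AGGG, was lower at an unadjusted p under 0.05, against 2.27% of all genes. For 7 to 14 days the median was 0.89, 0 passed the adjusted test by any of these, and 8 (edgeR 5, DESeq2 7) were higher at an unadjusted p under 0.05, against 3.82% of all genes. ND-24 had the smallest p of limma in that interaction, at a log2 difference of 1.11 (SE 0.39, adjusted p = 0.577). Without replicate 2 of the 7-day females the medians were −0.32 for 3 to 7 days and 0.54 for 7 to 14 days, with 0 subunits past an unadjusted p under 0.05 in either. Without replicate 1 of the 7-day females they were −0.93 with 10 subunits lower, and 1.13 with 17 higher. The 7 to 14 day median was 0.50 with 5 higher without replicate 1 of the 14-day males, and 26 were higher without replicate 3. Other omissions gave 4 to 13 higher. These comparisons share their 7-day libraries.

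**Figure D4:**
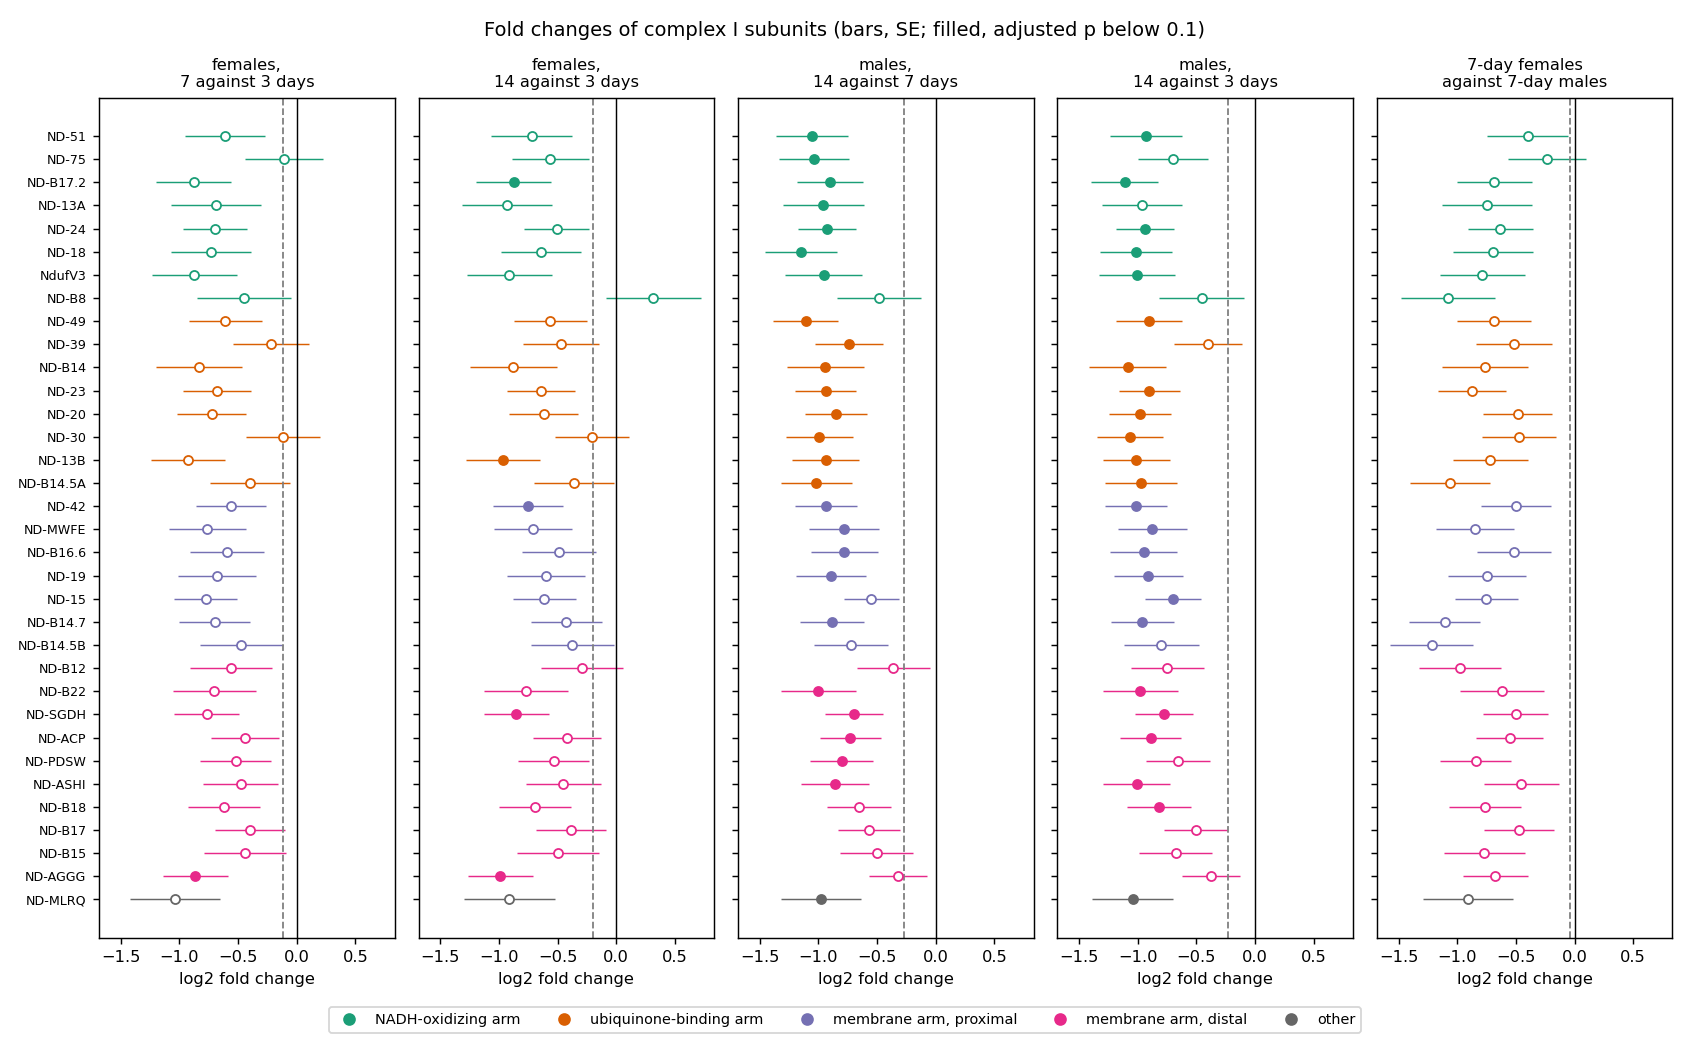
Log2 fold change of each of the 34 subunit genes in 5 comparisons (points, with SE bars; filled where the adjusted p is under 0.1; colour gives the place in the complex; dashed line, median of abundant genes). Nearly all points lie left of 0, with 1 filled in females at 7 against 3 days and 5 at 14 against 3 days, 26 in males at 14 against 7 days and 24 at 14 against 3 days, and 0 between the sexes at 7 days.

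Most subunits rose and fell together over the 16 libraries, while the SD of their ratio to the others was 0.12 to 0.49 on the log2 scale. Across them, which differ in group, depth and background and are not independent points, Pearson's r between a subunit and the median of the other 33 was 0.46 to 0.98 with a median of 0.93, and 25 of 34 were at 0.9 or above. The steadiest ratio was that of ND-MWFE, an accessory subunit of the proximal membrane arm, with an SD of 0.12 on the log2 scale, followed by ND-23. The least steady were ND-B8 (SD 0.49, r = 0.46), ND-B12 (SD 0.44, r = 0.66), ND-B14.5B (SD 0.40, r = 0.77) and ND-B15 (SD 0.33, r = 0.78). ND-B8, with the fewest reads, had 46.0, 52.6 and 70.5 normalized reads in females at 3 days, 37.9 and 43.1 at 7 days and 77.1 and 62.4 at 14 days, against 99.8, 87.9 and 69.6, 90.6, 73.3 and 97.2 and 42.4, 86.3 and 63.8 in males of the same ages. Relative to the other subunits it averaged −0.53 in 3-day females and 0.43 in 14-day females on the log2 scale. ND-B12 and ND-B14.5B averaged −0.42 and −0.48 in 3-day females relative to the others, and 0.46 and 0.36 in 14-day males. ND-75 stood above the others in 7-day females, by a mean of 0.56, with 1869.8 and 1160.3 normalized reads there, against 1824, 1869 and 1527 in 7-day males. ND-AGGG was above the others in 14-day males, by a mean of 0.41. These ratios are a description and were not tested.

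The 6 copies had another pattern. ND-51L2, ND-51L1, ND-49L, ND-24L, ND-20L and ND-B14.5AL are named after ND-51, ND-49, ND-24, ND-20 and ND-B14.5A, and several such copies of respiratory genes in Drosophila are expressed in testis. They were scarce, at 6.98 to 37.4 normalized reads per kb, and 5 of them had at least 1 library at 0 reads. How reads that fit both a gene and its copy were assigned is not given in the sources used here. ND-51L2 (chromosome 2R, 15296764 to 15298329) had 0, 17.5 and 3.24 normalized reads in females at 3 days, 15.3 and 80.5 at 7 days and 74.8 and 107 at 14 days. Males had 58.2, 7.39 and 28.1 at 3 days, 20.8, 36.7 and 37.4 at 7 days and 279, 90.1 and 80.4 at 14 days. In both sexes all 14-day libraries were above all 3-day libraries. It rose in females at 14 against 3 days, with a log2 fold change of 4.40 (adjusted p = 0.0135, SE 1.03), while in males the value was 2.39 (adjusted p = 0.115).

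In females at 14 against 3 days, 3 of 6 copies were called higher, against 17.1% of all genes tested. Besides ND-51L2 they were ND-20L and ND-24L. ND-20L had 15.0 and 27.5 normalized reads in 14-day females, against 0, 7.02 and 0 in 3-day females. ND-24L had 10.4 and 8.74 in 14-day females, against 0, 1.75 and 0 in 3-day females, where it was counted in 1 read in all, so its fold change rests on the pseudocount. In males at 14 against 7 days 0 copies were called by limma, and 3 were higher at an unadjusted p under 0.05, against 23.1% of all genes. For ND-51L2, ND-20L and ND-24L all 14-day male libraries were above all 7-day male libraries, against 21.3% of all genes tested. The other copies, given next, overlapped between these groups. ND-49L had 165, 35.0 and 20.1 normalized reads in 14-day males, against 4.72, 6.47 and 47.8 in 7-day males. ND-51L1 had 32.7, 21.3 and 18.7 in 14-day males, against 22.7, 18.0 and 10.5 in 7-day males. ND-B14.5AL had 43.6, 12.5 and 9.71 in 14-day males, against 0.944, 11.5 and 5.98 in 7-day males. In males all 14-day libraries were above all 3-day libraries for 6 of 6 copies, against 20.3% of all genes tested. In females this held for 5 copies, against 32.2%.

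The sum of the copies ran broadly with the background level of the libraries, though not every copy did. The sum was highest in replicate 1 of the 14-day males, at 652 normalized reads, where the background median was highest too, at 52.7. It was lowest in replicate 1 of the 3-day females, at 11.2, where the background was 0.561. ND-51L1 had 18.6 in replicate 3 of the 3-day females (background 2.84), against 13.8 and 12.5 in 14-day females (background 18.4 and 18.7). By group the sum was 11.2 to 38.6, 53.2 to 168 and 143 to 208 in 3-, 7- and 14-day females and 41.9 to 123, 52.9 to 130 and 162 to 652 in 3-, 7- and 14-day males. The background median over the same groups was 0.561 to 2.84, 8.12 to 19.9 and 18.4 to 18.7 in females and 8.94 to 16.64, 3.78 to 14.2 and 15.6 to 52.7 in males. Its part in the levels of the copies, and in those of the subunits, was not tested. The library of highest background at 7 days (females replicate 2) and that at 14 days (males replicate 1) were also left out together. This leaves 1 library of 7-day females. The median log2 fold change of the subunits was then −0.61 in females at 14 against 3 days, as in the main fit. In males it was −0.53 at 14 against 7 days and −0.57 at 14 against 3 days, beside −0.89 and −0.92 in the main fit.

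**Figure D5:**
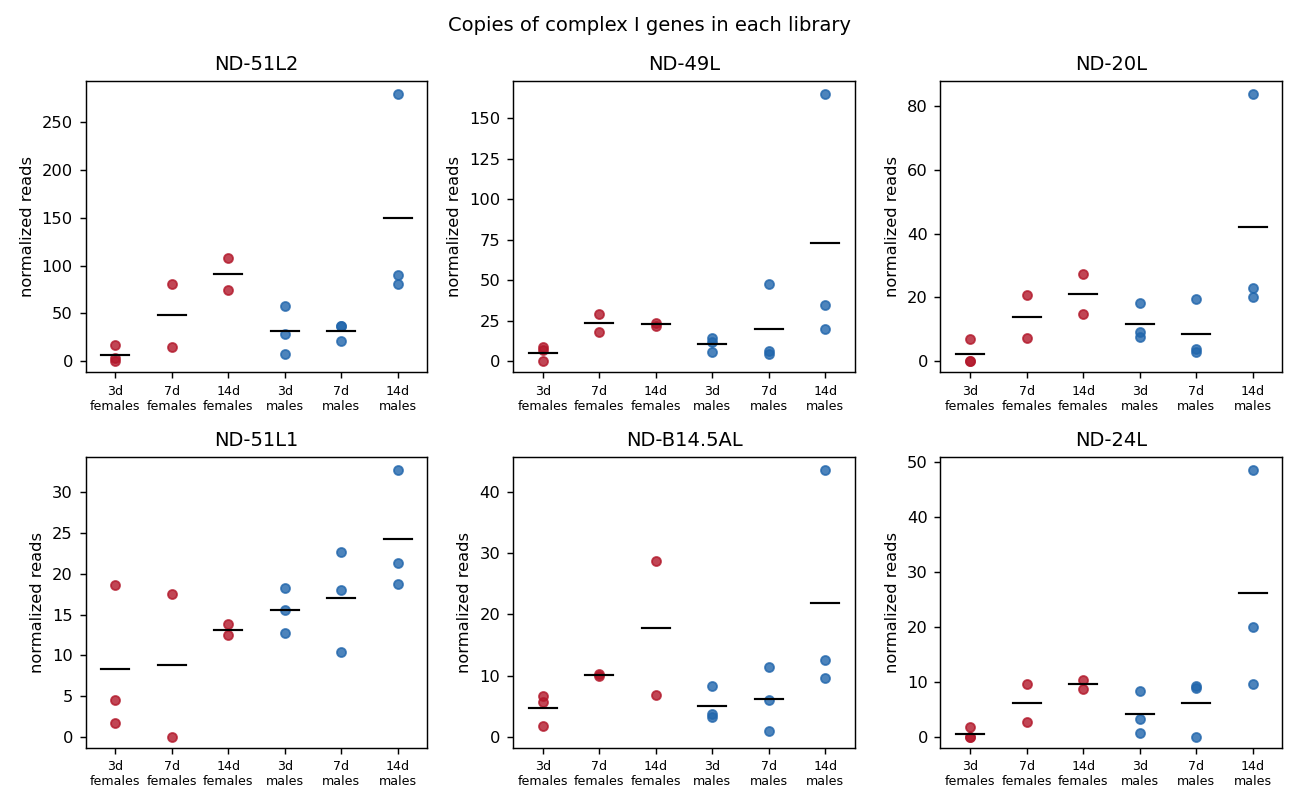
Normalized reads of the 6 copies in each library (points; lines, group means) for 3-, 7- and 14-day females (red) and males (blue). Values are low, reach 0 in some 3- and 7-day libraries, and are highest in replicate 1 of the 14-day males, where ND-51L2 was at 279.

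Other parts of the respiratory chain were set beside complex I in the same model. Of 49 genes of complexes II to V, which were chosen by symbol and include scarce copies like those above, 44 were tested. In males at 14 against 7 days 22 of them were called lower and 2 higher, beside 6.54% of all genes called lower and 1825 of 12448 called higher, with a median log2 fold change of −0.76, beside −0.89 for the complex I subunits. In that comparison edgeR called 0 of all genes, so that these calls were lost there with those of complex I. At 14 against 3 days in males 26 were lower (median −0.95), beside 5.43% of all genes. In females 12 were lower and 3 higher at 14 against 3 days (median −0.74), beside 4.61% and 17.1% of all genes, and 3 lower and 1 higher at 7 against 3 days (median −0.72), beside 0.739% and 6.93%. Between 7-day females and 7-day males 0 were called by limma, 15 were lower at an unadjusted p under 0.05, and the median was −0.60. By complex, 10 of 13 genes of ATP synthase, 3 of 4 of complex II, 4 of 11 of complex III and 5 of 16 of complex IV were called lower in males at 14 against 7 days.

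Mitochondrial ribosomal proteins, which make the subunits encoded in the organelle, gave 15 of 72 genes lower in males at 14 against 7 days, beside 6.54% of all genes in limma and 0 of all genes in edgeR, with a median of −0.64. At 14 against 3 days in males there were 3 of 72, beside 5.43% of all genes, with a median of −0.43. Between the sexes at 7 days 0 were called by limma, 25 were lower at an unadjusted p under 0.05, beside 3.11% of all genes, and 68 of 72 were below 0 (median −0.62). At 7 against 3 days in females 0 were called, 3 were lower at an unadjusted p under 0.05, and 66 of 72 were below 0 (median −0.44). In females at 14 against 3 days 0 of 72 were called by limma and 1 was lower at an unadjusted p under 0.05, with a median of −0.16. The 3 assembly factors of complex I found by symbol had 0 calls in any of these comparisons, and medians between −0.24 in males at 14 against 7 days and −0.05 between the sexes at 7 days. The difference between complex I and these lists was not tested.

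The sum of the neuronal markers, which was lower in the 14-day than in the 3-day libraries of each sex, was 83164 to 97574, 52146 to 102850 and 30658 to 62499 normalized reads in 3-, 7- and 14-day females and 68473 to 75312, 52742 to 61740 and 16548 to 51117 in 3-, 7- and 14-day males. Of the 5 markers 0 were called by limma in males at 14 against 7 days, all 5 had a log2 fold change below 0 (median −0.74), and 0 were lower at an unadjusted p under 0.05. At 14 against 3 days their median was −1.10 in males, with 0 called and 2 lower at an unadjusted p under 0.05, and −0.91 in females, with 0 at either threshold, beside subunit medians of −0.92 and −0.61. In replicate 1 of the 7-day females the neuronal sum reached as high as in 3-day females, while the subunit sum (27691) did not. In replicate 2 both sums (52146 and 18819) were below those of all 3-day females. The 4 glial markers had a median of −0.35 in males at 14 against 7 days, with 1 called lower, and −1.29 in females at 14 against 3 days, with 2 called lower. Of 9 muscle markers, 5 fell in males at 14 against 3 days (median −0.96), 3 in males at 14 against 7 days (median −0.24) and 3 in females at 14 against 3 days (median −0.92), and their sum was 5649.4 to 18812 normalized reads over all libraries. Of 6 photoreceptor markers, 6 fell in females at 14 against 3 days (median −2.35) and 2 in males (median −1.29), while in males at 14 against 7 days 0 were called (median 0.50). Of all genes tested, 4.61% were called lower in females at 14 against 3 days. In males 5.43% were called lower at 14 against 3 days and 6.54% at 14 against 7 days. The part that cell type markers play in the levels of complex I was not tested.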

How the data were processed

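Members and gene lists were chosen with earlier results of these data known. Per the labels and the study's methods, RNA of 100 pooled brains per sample was sequenced (TruSeq RNA v2, NextSeq2000). Single-end reads were trimmed by the authors (Trimmomatic 0.39), who removed ribosomal reads, mapped the rest to FlyBase release 6 (STAR 2.7.3a) and normalized gene counts in DESeq2. The deposited signal values are these normalized reads, for 16 of 18 samples; one library each of the 7- and 14-day females was not used here. All 215024 values were whole reads divided by 1 factor per library (tolerance 1e-06), which returned the reads; depth was 2924715 to 8664494 reads per library.

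Symbols came from NCBI's release 6 gene table (13434 genes matched by locus tag, 4 by synonym, 1 unmatched), and exonic lengths from BDGP6.54. Normalized reads were compared as log2(value + 1), which understates changes of scarce genes, for 12448 genes with a mean of at least 5, in 1 limma 3.58.1 model (R 4.3.3, variance trend) of 6 groups, with Benjamini-Hochberg adjustment over all genes tested and a threshold of 0.1. Log2 fold changes are females over males and older over younger. Values in every library were given for the 12 members with the smallest p and for those with the highest level per length. Of the copies, only ND-51L2 was given in every library, and the others only in some groups. Other members named by their ratio or adjusted p were chosen after their values were seen. Alternatives were quantile normalization, edgeR 4.0.16 and DESeq2 1.42.0 fitted to reads, array weights, a pseudocount of 0.5 or 5, a replicate block, a fit of only the groups compared, a minimum mean of 20 or none, rescaling on genes with a mean of 100 or more, and leaving out each library in turn. Leaving out together the library with the highest background at 7 days and that at 14 days was chosen after seeing the data. The model was tested on simulated data. A search for promoter motifs was not run. Scripts used Python 3.11.15, pandas 2.3.3, numpy 2.4.6 and matplotlib 3.10.9.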

Additional observations from a re-analysis of the deposited data

How the results depend on the processing

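Counts here are of all 40 members, called lower or higher, at an adjusted p under 0.1. For 14 against 7 days in males (26) they were 0 with edgeR, the replicate block, array weights or only the groups compared, and 10 with quantile normalization. Genes called lower and higher there were 0 and 0, 0 and 0, 1 and 0, 0 and 1, and 636 and 689 of 12448. The main fit called 814 and 1825. For 14 against 3 days in males (24) the counts of members were 0, 0, 0, 0 and 3. Genes called were 58 and 18, 107 and 50, 12 and 1, 27 and 16, and 356 and 259. The main fit called 676 and 758. For 14 against 3 days in females (8) the counts of members were 4, 5, 24, 16 and 1 in that order, and 5 with a mean of at least 20. Those 8 were 5 subunits called lower and 3 copies called higher. Genes called lower and higher were 385 and 1958, 399 and 1594, 1650 and 3262, 526 and 2079, and 229 and 233 of 12448. With a mean of at least 20 they were 495 and 1423 of 10405, and the main fit called 574 and 2126. For 7 against 3 days in females (1) the counts of members were 6 with DESeq2, 5 with array weights and 2 with a pseudocount of 0.5. They were 0 with edgeR, a pseudocount of 5, a mean of at least 20, quantile normalization, the replicate block or only the groups compared. Genes called lower and higher were 92 and 863 in the main fit. With DESeq2, array weights and a pseudocount of 0.5 they were 221 and 1546 of 13431, 96 and 889, and 96 and 954. With the settings that gave 0 members they were 72 and 1035, 54 and 340, 62 and 552, 0 and 0, 64 and 494, and 0 and 0. Between 3-day females and males (0) the counts of members were 1 with DESeq2, a pseudocount of 0.5 or quantile normalization, 2 with rescaling and 8 with array weights. Genes called lower and higher there were 1302 and 646 of 13431, 1134 and 388, 113 and 200, 893 and 314, and 2285 and 1221. Between the sexes at 7 days (0) DESeq2 gave 1 member, beside 18 genes lower and 64 higher. For the sex difference in change from 3 to 7 days (0) array weights gave 1 member, beside 76 genes lower and 784 higher. Leaving out 7-day females replicate 2 and 14-day males replicate 1 together leaves 1 library of 7-day females, so only medians of the 34 subunits are given. They were −0.07 and −0.35 between the sexes at 3 and 7 days, and −0.38 and −0.61 for 7 and 14 against 3 days in females. In males they were −0.53 and −0.57 for 14 against 7 and against 3 days. Leaving out single libraries gave 0 to 4 between the sexes at 3 days, 0 to 15 and 0 to 21 for 7 and 14 against 3 days in females, and 0 to 35 and 0 to 34 for 14 against 7 and against 3 days in males. Calls over all 12448 genes moved with these omissions too. Without replicate 1 of the 14-day males, 252 genes were lower and 1168 higher for 7 against 3 days in females, and 1220 and 2517 for 14 against 3 days. For 14 against 7 days in males 0 and 0 were called without 7-day males replicate 1, and 1028 and 2745 without replicate 3. Median log2 fold changes of the 34 subunits stayed below 0 in every setting for 7-day females against males (−1.02 to −0.35), 7 and 14 against 3 days in females (−0.88 to −0.38 and −0.69 to −0.20), and 14 against 7 and against 3 days in males (−1.14 to −0.53 and −1.19 to −0.57). Replicate numbers did not pair libraries (median correlation of deviations −0.046 over 35 same-numbered pairs and 0.008 over 71 others), so the replicate block is no paired analysis. The causes were not tested.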
